A study of Homo sapiens with 21 samples.

Results

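The genes of TGF-beta signaling described here are 10: the ligands *TGFB1*, *TGFB2* and *TGFB3*, the receptors *TGFBR1*, *TGFBR2* and *TGFBR3*, the latent TGF-beta binding protein genes *LTBP1*, *LTBP2* and *LTBP3*, and *TGFBI*, which encodes a TGF-beta-induced matrix protein. They were chosen by name, and every transcript of these genes in any of the 6 deposited tables was taken, which gave 28 transcripts of the 21537 transcripts listed in any table, and 10 of 11851 genes. The tables compare poly-A RNA between stages of a human cardiomyocyte differentiation and between wild-type and *UBE2B*-/- cardiomyocytes. All 21 libraries come from PGP1, an established human induced pluripotent stem cell (iPSC) line. Wild-type cells were sampled as iPSCs, mesoderm (M), cardiac mesoderm (CMes), cardiac progenitors (CP) and cardiomyocytes (CM), with 3 libraries at each of the 5 stages, 15 in all. Differentiation was started with the GSK3 inhibitor CHIR99021 and continued with the Wnt inhibitor IWP4, and beating cardiomyocytes were selected with lactate. Cardiomyocytes of 2 *UBE2B*-/- lines, from separate editing experiments in the same parental line and plated at a higher density than wild type, gave the other 6 libraries, 3 per line. UBE2B is the ubiquitin-conjugating enzyme of the complex that deposits H2Bub1 (monoubiquitin on histone H2B), and its close homolog UBE2A is still encoded in these cells. Replicates were independent differentiations, 1 plate each.

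TGF-beta ligands are secreted as latent complexes. A propeptide stays bound to the growth factor, an LTBP ties the complex to fibrillin and fibronectin in the matrix, and proteases, thrombospondin or integrins release it. The free ligand joins type II and type I receptors (TGFBR2 and TGFBR1), which phosphorylate SMAD2 and SMAD3, and TGFBR3 (betaglycan) is a co-receptor that presents TGF-beta2 in particular. In the developing heart this pathway is known for endocardial cushion formation, epicardial cells and fibroblasts.

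The tables hold no value per library. A row gives 1 transcript that passed the limit set by the authors, a q-value of at most 0.05, with the mean and the variances of its log estimated counts over all libraries of the fit. The fold-change limit that the authors used beside it for their calls is not applied here, so counts of listed transcripts are not their calls. The level given below is a pooled level: the geometric mean of the estimated counts over the 6 libraries of a stage comparison, or over the 9 libraries of the *UBE2B*-/- fit, with the pseudocount of 0.5 taken off. The spread between replicates is the residual SD within groups on the log2 scale (3 libraries per group). A separate technical SD, from Kallisto's repeated quantification of each library, gives the uncertainty of the estimated count. It includes both the division of reads between transcripts and the error of sampling few reads. The direction and size of the change in each of the 6 comparisons are results of the authors and are not used. In bulk RNA, fewer cells of a type and less RNA per cell cannot be told apart.

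The 10 genes entered the lists from the mesoderm onward. From iPSC to M, 0 of the 10 genes were listed, beside 22.0% of all genes listed in any table. From M to CMes, 6 were listed (*TGFB1*, *TGFB2*, *TGFBR1*, *TGFBR3*, *LTBP1* and *LTBP2*), beside 39.7%. From CMes to CP, 6 were listed (*TGFB2*, *TGFB3*, *TGFBR3*, *TGFBI*, *LTBP1* and *LTBP3*), beside 45.2%. From CP to CM, 6 were listed (*TGFBR1*, *TGFBR2*, *TGFBR3*, *LTBP1*, *LTBP2* and *LTBP3*), beside 66.5%, so the share of these genes is close to that of all genes at this transition. For *UBE2B*-/- line 1, 3 genes were listed (*TGFB1*, *LTBP1* and *LTBP3*), beside 20.6%, and for line 2 the same 3 and *TGFBR1*, beside 20.4%. In transcripts these are 0, 6, 14 and 17 at the 4 transitions and 4 for each mutant line, 45 table entries in all. No test was made of these shares. A gene that is not listed has no value here and may be expressed without passing the limit.

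**Figure D1:**
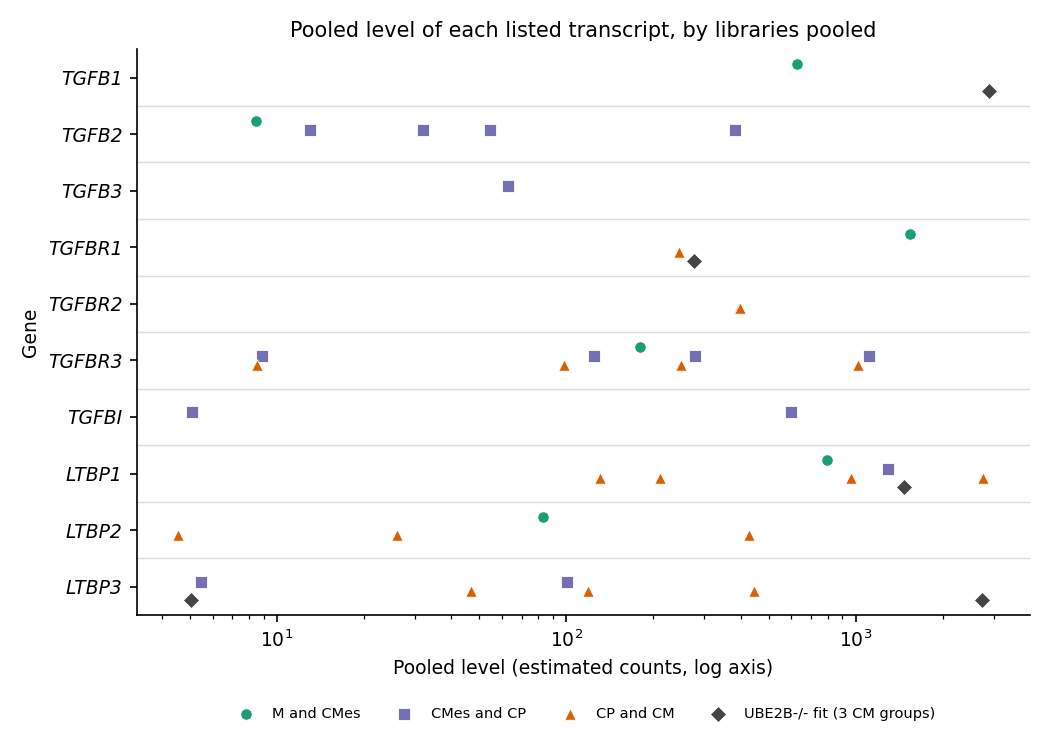
Pooled level in estimated counts (log axis) of each listed transcript of the 10 genes, with 1 symbol for each set of libraries pooled; both *UBE2B*-/- tables share 1 fit and are drawn once. Levels run from 4.54 (an *LTBP2* transcript, CP and CM) to 2895 (*TGFB1*, *UBE2B*-/- fit), and *TGFBR3* and *LTBP1* appear at 3 successive stage pairs.

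Of the ligands, *TGFB1* was listed through 1 transcript, its canonical one (ENST00000221930.5, chromosome 19, 41330323 to 41353922, minus strand, 7 exons, GRCh38). Its pooled level was 625.5 estimated counts over M and CMes, above 69.4% of the transcripts listed there. Replicates spread widely: the SD within a stage was 0.73 on the log2 scale against a technical SD of 0.08, and the biological variance was 19.1 times that of transcripts of similar level, larger than for 99.3% of listed transcripts. The replicates thus differed by far more than the technical error of quantification. Over the 9 cardiomyocyte libraries of the *UBE2B*-/- fit its pooled level was 2895 estimated counts, with an SD within groups of 0.53 and a technical SD of 0.028. Per kilobase of transcript that level was 1041, the highest of the member transcripts listed in that fit, against 566.5 for *LTBP3* and 284.9 for *LTBP1* in the same fit. This order is of levels pooled over 3 groups and need not hold within each.

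*TGFB2* was low where it was first listed. Its canonical transcript (ENST00000366930.9, chromosome 1, 218345336 to 218444619, plus strand) had a pooled level of 8.49 estimated counts over M and CMes, above only 11.1% of listed transcripts, and 383.4 over CMes and CP, above 51.4%. The SD within a stage was 1.61 on the log2 scale at the low level and 0.37 at the higher one. From CMes to CP, 3 more *TGFB2* transcripts were listed, with pooled levels of 31.9, 54.6 and 13.0 estimated counts. ENST00000479322.1 and ENST00000488793.1 are annotated without a coding sequence. ENST00000366929.4 is the longer coding form, of 442 residues against 414, whose coding sequence has 1 more exon, in the propeptide. That exon (chr1:218363334-218363417, GRCh38, plus strand, 84 bases, 58.3% GC) is shown because it is what separates the pair of coding isoforms in the listed data. It is in capitals, with 10 bases of the spliced neighboring exons in lower case:
TGFB2 exon 2: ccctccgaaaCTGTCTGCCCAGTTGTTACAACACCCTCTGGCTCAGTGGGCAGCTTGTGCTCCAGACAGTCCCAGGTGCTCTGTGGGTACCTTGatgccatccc
The form with this exon had a pooled level of 31.9 estimated counts and the form without it 383.4, a ratio of 0.083, pooled over the same CMes and CP libraries, which need not hold within either stage. The pair also differs at its 5′ end, so the ratio does not measure the use of this exon alone. Replicates of the exon-containing form differed with an SD of 2.18 on the log2 scale, and its technical SD was 1.16 against 0.21 for the shorter form.

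*TGFB3* was listed only from CMes to CP, through its canonical transcript (ENST00000238682.7, chromosome 14, 75958097 to 75981995, minus strand). The pooled level was 62.8 estimated counts, with an SD within a stage of 0.34 and a technical SD of 0.25 on the log2 scale. Per kilobase, over the same libraries, *TGFB2* was at 65.3 and *TGFB3* at 18.3.

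*TGFBR1*, the type I receptor, was listed from M to CMes through ENST00000552516.5 (chromosome 9, 99105150 to 99153658, plus strand, 507 residues) at 1543 estimated counts, above 87.0% of listed transcripts. From CP to CM and in line 2 a shorter coding transcript was listed instead, ENST00000550253.1 (434 residues), at 245.0 and 275.2 estimated counts. Its spread within groups was 0.24 over CP and CM and 0.46 in the *UBE2B*-/- fit on the log2 scale. Neither of these is the canonical transcript of *TGFBR1*.

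*TGFBR2*, the type II receptor that binds the ligand first, was listed only from CP to CM, through both of its coding forms. They share chromosome 3, 30606601 to 30694142 (plus strand), and differ by 1 exon of 75 bases that adds 25 residues to the extracellular part. The exon (chr3:30623199-30623273, GRCh38, plus strand, 48.0% GC) is given because the reads could not be divided between these forms with precision. It is in capitals between 10 bases of its spliced neighbors:
TGFBR2 exon 2: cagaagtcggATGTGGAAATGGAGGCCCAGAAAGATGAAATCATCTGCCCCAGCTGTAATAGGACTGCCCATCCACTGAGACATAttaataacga
The pooled level was 396.9 estimated counts for the form with the exon (ENST00000359013.4) and 395.4 for the canonical form without it (ENST00000295754.9), a ratio of 1.0 pooled over both stages. The technical SD was 0.93 and 1.46 on the log2 scale, while the SD within a stage was only 0.24 and 0.39. The technical variance was 1558% and 1402% of the residual variance. With the shrunken variance of the fit, the share of the variance between stages was 54.8% and 44.9% for these transcripts, against 97.2% and 96.1% from the replicates alone.

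*TGFBR3*, the co-receptor betaglycan, was listed at 3 successive transitions and gave 9 of the 45 table entries. Its canonical transcript (ENST00000212355.9, chromosome 1, 91680343 to 91886151, minus strand, 17 exons) had a pooled level of 180.3 estimated counts over M and CMes, 1109 over CMes and CP and 1017 over CP and CM. Replicates were close, with an SD within a stage of 0.28, 0.20 and 0.21 on the log2 scale, and at least 95.6% of the observed sum of squares lay between the stages at each transition. Since listing selected transcripts on that difference, this share is a description; its median over all transcripts listed was 88.01%, 88.79% and 89.44% at these transitions. The coding transcripts ENST00000465892.6 and ENST00000525962.5 had pooled levels of 124.9 and 278.7 estimated counts over CMes and CP, with technical SDs of 1.04 and 0.88 on the log2 scale that exceeded their SDs between replicates. ENST00000532540.5, annotated for nonsense-mediated decay, was at 8.85 and 8.52 estimated counts over the last pairs of stages.

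Of the binding proteins, *LTBP1* was listed in 5 of the 6 tables. Its canonical, longest transcript (ENST00000404816.7, chromosome 2, 32946953 to 33399509, plus strand, 34 exons, 1721 residues) had a pooled level of 798.8 estimated counts over M and CMes, 1295 over CMes and CP and 2758 over CP and CM, above 95.5% of listed transcripts at the last. The SD within a stage was 0.18, 0.19 and 0.54 on the log2 scale. At the last pair the biological variance was 11.1 times that of transcripts of similar level, more than for 97.5% of listed transcripts, while the technical SD was 0.063. In both *UBE2B*-/- tables *LTBP1* was listed instead through ENST00000418533.6, which starts at a downstream first exon (33134597), encodes 1353 residues and lacks an internal coding exon of the long form. Its pooled level was 1471 estimated counts over the 9 cardiomyocyte libraries, with an SD within groups of 0.67. Over CP and CM the same short transcript was at 210.1, with an SD within a stage of 2.84 and a technical SD of 1.61 on the log2 scale. Its biological variance was 89.2 times that of transcripts of similar level, above 99.9% of listed transcripts. The alternative exon (chr2:33342838-33342963, GRCh38, plus strand, 126 bases, 49.2% GC, 42 residues) is printed because the long form carries it and the form listed in the mutant tables does not. Capitals mark the exon:
LTBP1 exon 25: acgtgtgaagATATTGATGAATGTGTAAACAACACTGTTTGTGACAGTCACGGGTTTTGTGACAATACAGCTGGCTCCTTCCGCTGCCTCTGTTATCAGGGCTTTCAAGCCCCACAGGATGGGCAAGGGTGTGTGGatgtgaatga
Over CP and CM the long form was 13.1 times the short form ENST00000418533.6 by pooled level. This ratio pools both stages and need not hold in either, since the observed SD over the 6 libraries was 5.18 for the short form and 1.23 for the long form on the log2 scale. The pair also differs at its 5′ end, so the levels do not measure the use of this exon by itself. The other *LTBP1* transcripts listed from CP to CM were ENST00000404525.5 at 963.8 and ENST00000422669.1 at 131.1 estimated counts. ENST00000404525.5 also has a downstream start (33134639) and encodes 1342 residues, so the ratio of 13.1 does not cover all shorter coding forms. Its technical SD was 0.80 against an SD within a stage of 0.45 on the log2 scale.

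*LTBP2*, which binds fibrillin but not the latent ligand, was listed from M to CMes and from CP to CM. Its canonical transcript (ENST00000261978.9, chromosome 14, 74498183 to 74612237, minus strand, 36 exons) had a pooled level of 82.9 estimated counts over M and CMes and 428.4 over CP and CM. The SD within a stage was 0.45 at the first and 0.92 at the second on the log2 scale. At the second the biological variance was 22.1 times that of transcripts of similar level, above 99.1% of listed transcripts, at a technical SD of 0.12. A form annotated for nonsense-mediated decay (ENST00000553939.5) was at 26.0 and a short coding fragment (ENST00000556206.1) at 4.54 estimated counts.

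*LTBP3* had its canonical transcript (ENST00000301873.9, chromosome 11, 65538559 to 65558359, minus strand, 28 exons) in 4 tables. Its pooled level was 100.4 estimated counts over CMes and CP, 445.4 over CP and CM and 2738 in the *UBE2B*-/- fit, above 26.4%, 67.2% and 91.1% of the transcripts listed in the respective tables (90.1% in the table of line 2). The SD within groups was 0.34 on the log2 scale in each. Over CMes and CP the technical SD was 0.63, above that SD. There the share of variance between stages was 92.1% from the replicates alone and 68.2% with the shrunken variance. A form that lacks 1 coding exon (ENST00000322147.8) was at 46.7 over CP and CM, a ratio of 9.53 in favor of the canonical form, with an SD within a stage of 2.93 and a technical SD of 1.28. This ratio too pools both stages and need not hold in either, as the observed SD over the 6 libraries was 5.11 for the short and 1.53 for the canonical form on the log2 scale. This exon (chr11:65540013-65540153, GRCh38, minus strand, 141 bases, 77.3% GC, 47 residues) is printed because it separates these coding forms. The exon is in capitals:
LTBP3 exon 24: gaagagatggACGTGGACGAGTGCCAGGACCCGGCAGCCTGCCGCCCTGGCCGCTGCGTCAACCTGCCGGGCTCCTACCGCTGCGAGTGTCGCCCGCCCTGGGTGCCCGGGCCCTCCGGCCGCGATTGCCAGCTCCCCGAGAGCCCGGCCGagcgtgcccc
These forms differ at their ends as well. Another coding form, ENST00000526927.5 (971 residues), was at 118.6 over CP and CM, with an SD within a stage of 1.36 and a technical SD of 1.52. A retained-intron transcript, ENST00000529189.5, was listed for line 1 only, at 5.05 estimated counts with an SD within groups of 2.10, and ENST00000530866.5 was at 5.48 over CMes and CP.

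*TGFBI*, a secreted matrix protein named for its induction by TGF-beta, was listed only from CMes to CP. Its canonical transcript (ENST00000442011.7, chromosome 5, 136028988 to 136063818, plus strand, 17 exons) had a pooled level of 598.2 estimated counts, above 62.3% of listed transcripts, with an SD within a stage of 0.30 and a technical SD of 0.66 on the log2 scale. A retained-intron form (ENST00000506699.5) over nearly the same interval was at 5.08. Per kilobase over the same CMes and CP libraries, *TGFBI* was at 220.6, *LTBP1* at 199.1, *TGFBR3* at 174.9, *TGFB2* at 65.3, *LTBP3* at 20.8 and *TGFB3* at 18.3. Per kilobase over CP and CM, *LTBP1* was at 424.1, *TGFBR3* at 160.4, *TGFBR1* at 159.3, *LTBP3* at 92.2, *TGFBR2* at 86.2 and *LTBP2* at 50.6. These orders are of the listed transcript with the highest level of each gene, pooled over both stages, and need not hold within a stage. For *TGFBR2* that is 1 of 2 forms of nearly equal level, and its listed transcripts summed to 792.3 estimated counts over CP and CM. With 200 bases taken off each length, *TGFBR1* was at 183.1 per kilobase over CP and CM, above *TGFBR3* at 165.7. Over CMes and CP the observed SD was 2.66 for *TGFBI* and 2.81 for *TGFB2* but 0.31 for *LTBP1* on the log2 scale. Over CMes and CP, *TGFBI* and *LTBP1*, *LTBP1* and *TGFBR3*, and *LTBP3* and *TGFB3* are neighbors whose levels differ by less than the SD between replicates of either. The same holds over CP and CM for *TGFBR3* and *TGFBR1* and for *LTBP3* and *TGFBR2*.

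**Figure D2:**
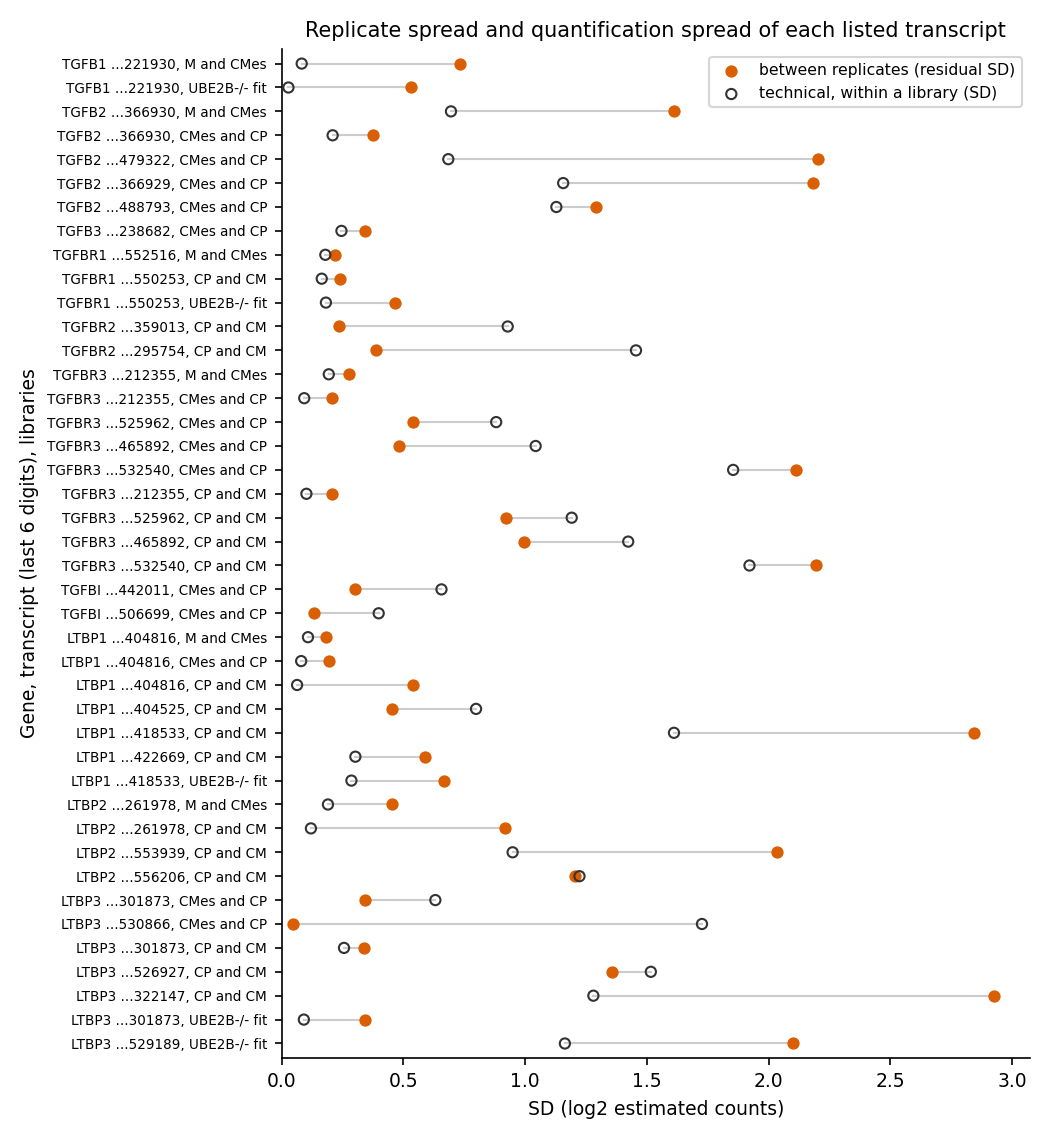
Residual SD between replicates (filled) and technical SD of the quantification (open), both in log2 estimated counts, for each listed transcript and set of libraries. *TGFB1* is drawn over M and CMes and for the *UBE2B*-/- fit. Its values there and those of the canonical *LTBP1* and *LTBP2* transcripts over CP and CM have a technical SD of at most 0.12. Their replicate SD is 0.53 to 0.92. Both *TGFBR2* forms have technical SDs of 0.93 and 1.46 and replicate SDs of 0.24 and 0.39.

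The technical variance exceeded the residual variance in 6 of 14 member transcripts from CMes to CP and in 7 of 17 from CP to CM, against 22.1% and 26.2% of all listed transcripts. From M to CMes and in each mutant table it did so in 0 of 6, 0 of 4 and 0 of 4, against 22.0%, 11.4% and 11.0%. The plot of replicate and technical SD shows which they were. These all belong to genes with more than 1 listed transcript in that table. The median share of variance between groups over the members was 86.61%, 93.45% and 86.12% at the last 3 transitions and 75.63% in both mutant tables, where the median of all listed transcripts was 80.42% and 79.76%.

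Differences across 2 stages follow from the pooled means. A transcript listed at successive transitions has the same middle stage in both means, so 2 times the difference between them is the difference between the outer stages. The tables were normalized separately, so any offset in scale enters doubled, and the median over all transcripts listed in both tables is given for each interval. These transcripts were listed for differing at both transitions, so no test was made.

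From M to CP, all 3 member transcripts with a value were higher in CP. *TGFB2* was higher by 10.83 ± 0.95 (SE) on the log2 scale, above 98.9% of the 2427 transcripts compared, whose median was 0.378 (middle 50% -0.914 to 2.26). *TGFBR3* was higher by 5.23 ± 0.20, above 91.0%, and *LTBP1* by 1.39 ± 0.15, above 63.1%. Each exceeds 2 SE, as did 80.4% of all transcripts compared, and 60.2% of all were higher in CP. The low pooled level of *TGFB2* at M and CMes means that its size depends on the pseudocount. From CMes to CM, the canonical transcript of *LTBP3* was higher in CM by 4.29 ± 0.28, above 94.6% of 3743 transcripts, and that of *LTBP1* by 2.18 ± 0.33, above 88.0%. The median of all was -0.442, with the middle 50% from -1.85 to 0.765, and 35.9% were higher. *TGFBR3* differed less than its error allows to resolve. Its canonical transcript was at -0.25 ± 0.17, and the other 3 were at -0.31 ± 0.62, -0.70 ± 0.64 and -0.10 ± 1.76. The canonical value and 2 of these others turn positive (0.19, 0.13 and 0.34) once the median is taken off, so no direction is given for *TGFBR3* between CMes and CM. From iPSC to CMes no member transcript has a value.

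**Figure D3:**
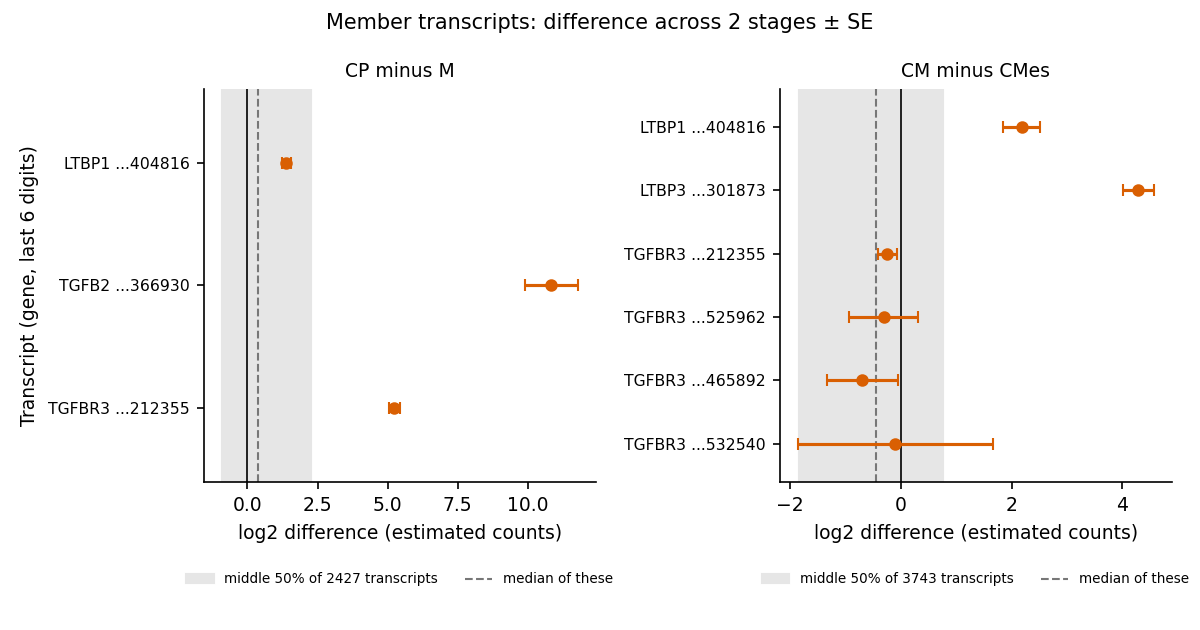
Difference in log2 estimated counts ± SE (3 libraries per stage) of each member transcript between M and CP (left) and between CMes and CM (right), with the middle 50% (gray band) and the median (dashed) of all transcripts compared. *TGFB2* and *TGFBR3* lie above the band between M and CP, *LTBP1* and *LTBP3* lie above it between CMes and CM, and the 4 *TGFBR3* transcripts lie inside it between CMes and CM.

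Other genes of the pathway were taken as 36 genes in 4 lists by role. Of these, 34 were listed in at least 1 table, and *ENG* and *ACVRL1*, endothelial receptors of the family, in none. The number listed was 15, 27, 18 and 25 at the 4 transitions and 6 and 8 for the *UBE2B*-/- lines, beside 22.0%, 39.7%, 45.2%, 66.5%, 20.6% and 20.4% of all genes. From M to CP, 7 of 13 genes of latent complex storage and activation had a value and all 7 were higher in CP, with a median of 3.33 on the log2 scale, beside 60.2% higher and a median of 0.378 over all 2427 transcripts compared. They were led by *LRRC32*, which anchors latent TGF-beta at the cell surface, at 10.35 ± 0.69, then the integrin subunit gene *ITGB8* at 4.96 ± 0.40 and *THBS1* (thrombospondin, an activator) at 3.73 ± 0.35. *FURIN*, which cleaves the propeptide, was at 2.66 ± 0.16, and the fibrillin genes *FBN2* and *FBN1* were at 2.22 ± 0.20 and 1.64 ± 0.16. Of the receptors and transducers, 3 of 11 had a value and were higher in CP: the inhibitory *SMAD6* at 6.88 ± 0.33 and *SMAD7* at 2.79 ± 0.26, and the decoy receptor gene *BAMBI* at 5.29 ± 0.24. Of 5 known targets, *FN1*, which encodes fibronectin, had a value, 5.17 ± 0.22. *TGIF1*, a co-repressor, was at -0.40 ± 0.15.

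From CMes to CM, genes of the same lists had values on both sides of 0, and the median over all transcripts compared was -0.442, with 35.9% higher. *ITGB6*, an integrin subunit that releases TGF-beta, was higher by 12.39 ± 0.41, *THBS1* by 3.78 ± 0.44 and *SMAD3* by 1.94 ± 0.19. The pooled level of *ITGB6* over CMes and CP was only 3.47 estimated counts, so the size of its difference depends on the pseudocount. *LRRC32* was at -1.57 ± 0.54, *SMAD6* at -0.99 ± 0.21 (ENST00000288840.10; ENST00000612349.1, its transcript for the other intervals, was at -2.64 ± 0.29), *SMAD4* at -0.72 ± 0.10 and *TGIF1* at -2.70 ± 0.22. *SMAD2* at -0.39 ± 0.20, *FURIN* at -0.42 ± 0.22 and *SMAD7* at 0.09 ± 0.20 were within 2 SE of 0. So was *FN1* at 0.42 ± 0.47 through its transcript with the highest level, while its transcript ENST00000446046.5 was at 3.62 ± 0.44. Less that median, *SMAD4* is at -0.28 and *SMAD6* (ENST00000288840.10) at -0.55 and *LRRC32* at -1.13, all inside the middle 50% of all transcripts. From iPSC to CMes, *FBN2* was higher by 4.64 ± 0.22, *SMAD6* by 4.73 ± 0.36 and *FN1* by 3.22 ± 0.16, while *CCN2* was at -0.74 ± 0.29. The median over all 1551 transcripts was 0.153, with 62.9% higher. Of the receptors and transducers with a value, 3 were higher and 0 lower. The counts were 2 and 2 for regulators of SMADs, 2 and 2 for storage and activation, and 1 and 1 for known targets. These counts go by sign alone. The lower genes of storage and activation, *THBS1* at -0.02 ± 0.25 and *LTBP4* at -0.25 ± 0.57, were within 2 SE of 0. So were *PMEPA1*, a regulator, at -0.02 ± 0.39 and the receptor gene *ACVR1* at 0.27 ± 0.23.

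**Figure D4:**
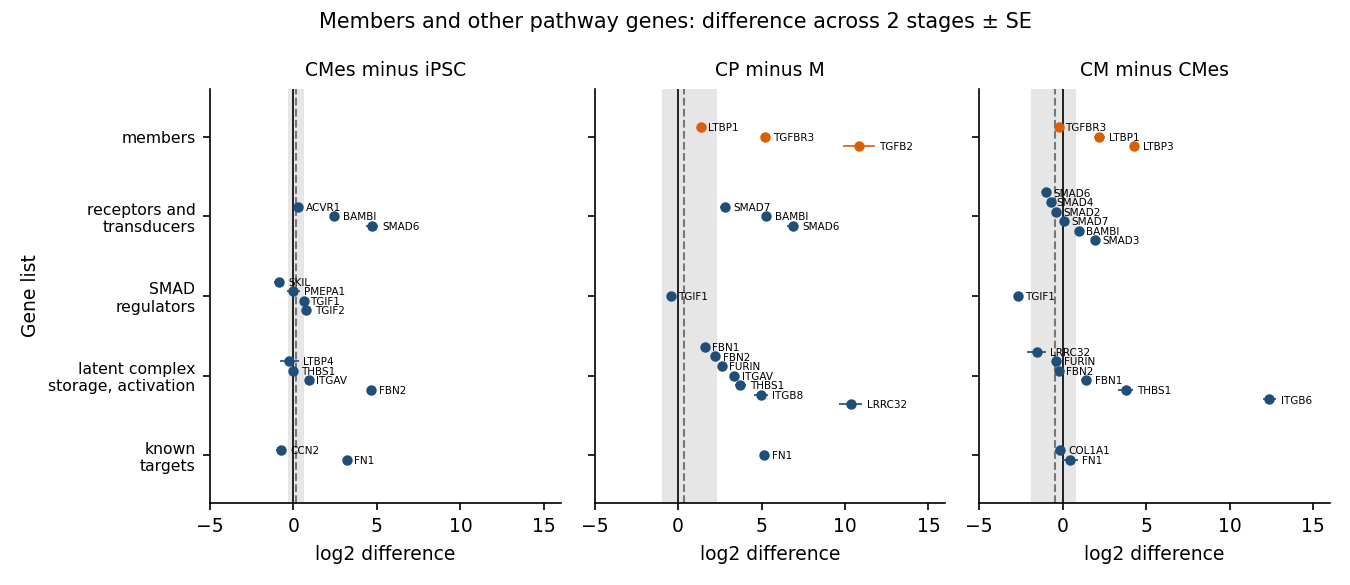
Difference in log2 estimated counts ± SE between outer stages for the member genes (orange) and other pathway genes (blue) that have a value, 1 transcript per gene, with the middle 50% (gray) and median (dashed) of all transcripts compared. Between M and CP the 7 genes of storage and activation lie from 1.64 to 10.35, and between CMes and CM the lists hold genes on both sides of 0.

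The stage labels were compared with markers by the same measure. From M to CP, *NANOG* (-6.63 ± 0.33) and *POU5F1* (-3.79 ± 0.27) were lower and *HAND1* (11.05 ± 0.24) higher. The pluripotency-associated *DNMT3B* was at -0.29 ± 0.23, through a minor transcript (ENST00000348286.6). Its transcript with the highest level (ENST00000328111.6, 8249 estimated counts over CMes and CP) has no value from M to CP. From CMes to CM that transcript was at -9.02 ± 0.31. Of the mesoderm markers, *TBXT* was at -9.43 ± 1.04 (pooled level 2.69 over CMes and CP, so its size depends on the pseudocount) and *MESP1* at 0.59 ± 0.85. *EOMES* had a value only through a minor transcript (ENST00000449599.3), at 0.0089 ± 0.53. Its pooled levels were 3.65 and 3.66 estimated counts, so this value depends on the pseudocount and gives no direction for the gene. The *EOMES* transcript with the highest level over CMes and CP (ENST00000295743.8, 522.6) has no value from M to CP. From CMes to CM, *POU5F1* was at -13.44 ± 0.35, *MYH7* at 16.40 ± 0.30, and of the cardiac progenitor markers *NKX2-5* was at 7.47 ± 0.21 and *HAND1* at -1.74 ± 0.22. The sizes for *POU5F1* and *MYH7* depend on the pseudocount too, at pooled levels of 17.8 over CP and CM and 14.9 over CMes and CP. Genes of other cell types had differences over the same intervals. From iPSC to CMes, where the members have no value, the endodermal *FOXA2* was at 10.90 ± 0.94 and the smooth muscle gene *CNN1* at 0.24 ± 0.21. Over that interval the cardiac progenitor marker *GATA4* was at 8.11 ± 1.10 and the mesoderm marker *TBXT* at 5.15 ± 1.21. *DNMT3B*, through the minor transcript, was at -0.03 ± 0.30. The sizes for *FOXA2*, *GATA4* and *TBXT* depend on the pseudocount, at pooled levels of 6.25, 16.6 and 18.2 over iPSC and M. From M to CP, the mesenchymal genes *COL3A1* and *LUM* were higher by 15.85 ± 0.35 and 13.53 ± 0.26 (2 of 5 markers with a value). The endodermal *SOX17*, *FOXA2* and *APOA1* were higher by 8.73 ± 0.52, 3.96 ± 0.67 and 12.37 ± 0.90 (3 of 4), and the smooth muscle gene *CNN1* by 2.69 ± 0.23 (1 of 4). The sizes for *LUM*, *COL3A1* and *APOA1* over this interval depend on the pseudocount. Their pooled levels over M and CMes ran from 3.5 (*LUM*) to 7.53 (*APOA1*) estimated counts. From CMes to CM, the smooth muscle genes *ACTA2* and *CNN1* were higher by 7.64 ± 0.31 and 3.83 ± 0.24 (2 of 4), and *COL3A1* by 6.76 ± 0.40 and *LUM* by 3.50 ± 0.37, while *COL1A1*, through a minor transcript, was at -0.175 ± 0.26 (3 of 5 mesenchymal markers with a value). The endodermal genes *SOX17*, *FOXA2* and *APOA1* were at -6.29 ± 0.55, -6.21 ± 1.76 and -0.87 ± 0.83 (3 of 4). The most abundant mesenchymal gene listed was *COL1A1* over CMes and CP (7343 estimated counts, pooled) and *COL3A1* over CP and CM (12880), and that of smooth muscle over CP and CM was *ACTA2* (6424). Summed levels are not compared, since each table lists other transcripts of these genes. Of the 4 endothelial markers, *PECAM1* and *CDH5* were listed in no table. *TEK* was listed from iPSC to M (571.3 estimated counts, pooled), *KDR* (1585 for its highest transcript) and *TEK* from CP to CM, and *KDR* for *UBE2B*-/- line 2 (504.5). The part of these cells in the values of the TGF-beta genes was not tested.

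Both *UBE2B*-/- tables come from 1 fit over the 9 cardiomyocyte libraries: the 1992 transcripts listed for both lines (64.5% of those of line 1 and 63.6% of those of line 2) had the same pooled values in both, within a relative tolerance of 1e-09. *TGFB1*, *LTBP1* (ENST00000418533.6) and *LTBP3* (ENST00000301873.9) were listed for both lines, *TGFBR1* for line 2 only and the retained-intron *LTBP3* transcript for line 1 only. The lines share their wild-type libraries, so being listed in both is not independent evidence. Over these 9 libraries 70.9% of the observed sum of squares of *TGFB1* lay between the 3 groups, 80.4% of that of *LTBP1* and 87.6% of that of *LTBP3*, and 67.4% of that of *TGFBR1*. The pooled values carry no direction, so it is not said here in which group these genes were higher. Among the other pathway genes, *FBN2* (16660 estimated counts), *FURIN* (5218), *LTBP4*, *DCN* and *BAMBI* were listed for both lines, *TGIF1* for line 1 and *SKI*, *TGIF2* and *COL1A1* for line 2. Mesenchymal markers were also listed, 2 of 5 for line 1 (*COL3A1* and *DCN*) and 4 of 5 for line 2 (also *COL1A1* and *LUM*), led in both by *COL3A1* at 50520 estimated counts over the same 9 libraries. Cardiomyocyte markers were listed as well, 3 of 5 for line 1 and 4 of 5 for line 2, led by *TNNT2* at 12090. Of the other marker lists, the smooth muscle gene *CNN1* (307.8) and *GATA4* (1168) were listed for both lines, the endodermal *SOX17* (50.5) for line 1 and the endothelial *KDR* for line 2. Their part in the listing of the TGF-beta genes was not tested.

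The transcript profile most like that of *LTBP3* was sought among 401 transcripts listed in the same 4 tables, by the root mean square difference of the pooled log2 levels after centering each transcript on its own mean. The 5 nearest were of *MAN1C1* (0.083), *ZNF503* (0.265), *COL3A1* (0.44), *CTNNA3* (0.45) and *BVES* (0.46). *MAN1C1*, a mannosidase of N-glycan processing, was at 71.0 estimated counts over CMes and CP, 301.2 over CP and CM and 2117 in the *UBE2B*-/- fit, where *LTBP3* was at 100.4, 445.4 and 2738. These 4 tables hold 3 distinct pooled values, so the likeness is a description.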

How the data were processed

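Poly-A RNA of 21 libraries in 7 groups was quantified by the authors with Kallisto on hg38 and compared in Sleuth. They deposited 6 result tables of transcripts with a q-value of at most 0.05. The deposited mean is a natural log of estimated counts plus 0.5, pooled over the libraries of a fit, and the variances, scores in squared natural-log units, were computed by the authors too, the technical one from Kallisto's repeated quantification. The effect, its standard error, the p-value and the q-value are comparisons of the authors and were not used. With 0 columns that hold values of single libraries, the depth of each library is unknown and no test was made. Levels, variance shares and differences were computed in Python 3.11.15 with pandas 2.3.3 and checked on simulated data. SEs combine the residual variances of both fits over 3 libraries per group. Exons and lengths came from GENCODE 44 on GRCh38 (28 of 28 transcripts matched without version, 22 with it). All 10 members were named, and the transcript with the highest pooled mean spoke for its gene. *NRROS* was matched under its older symbol. One gene of the pathway lists is not reported here and was left out of their counts. Members and lists were chosen with earlier results of these data known. Alternatives were no pseudocount subtraction, summed transcripts, shrunken variance, a level of at least 5, a median shift and an effective length.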

Additional observations from a re-analysis of the deposited data

How the results depend on the processing

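With the median of all transcripts in both tables taken off, the differences from M to CP became 1.01 for *LTBP1* and 4.86 for *TGFBR3*, and those from CMes to CM became 2.62 for *LTBP1* and 4.73 for *LTBP3*. For *TGFBR3* from CMes to CM, ENST00000212355.9, ENST00000525962.5 and ENST00000532540.5 turned to 0.19, 0.13 and 0.34, and the cause was not tested. With the shrunken biological variance, the median share between groups over the members was 78.83% from CMes to CP and 74.99% from CP to CM. Over all listed transcripts it was 79.99% and 77.78% with that variance. Of 45 single member shares, 10 moved by over 10 percentage points, since that variance cannot fall below the value shared by transcripts of similar level. Changes in level are counted where they exceed 1 SD between replicates of that transcript, so a transcript with a wide spread can change much and not be counted. Leaving the pseudocount in then moved 2 of 45 levels, summing transcripts 5 of 25 gene levels (*TGFBR2* to 792.3), and the shorter effective length 1 of 45. Not counted were the level per kilobase of the short *TGFB2* transcript ENST00000488793.1, from 32.2 to 63.6 with that length, and the summed *TGFB2* level over CMes and CP, from 383.4 to 482.9. A minimum level of 5 moved no count by over 1.5 times. No paired analysis was possible because the tables hold no value per library, and leaving out a replicate was not run for the same reason. Library depth could not be read from these tables, and the technical SD of a member transcript did not follow its level alone, with 0.40 for *TGFBI* ENST00000506699.5 at 5.08 estimated counts and 1.46 for *TGFBR2* ENST00000295754.9 at 395.4.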
